A study of Mus musculus with 62 samples.

Results

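The glutathione peroxidase family was followed through the male reproductive tract of the mouse by taking the rows of the deposited expression table named Gpx1, Gpx2, Gpx3, Gpx4, Gpx5, Gpx6, Gpx7 and Gpx8, which are 8 of the 23845 genes listed. The members were taken by name, and they were chosen with earlier results of these data known. The table gives TPM, a transcript abundance corrected for transcript length and scaled to the same total in every library, for 62 libraries of polyadenylated RNA from testis, caput (proximal) epididymis and cauda (distal) epididymis. The study asked how the lack of a commensal microbiota affects these tissues in males and in the sons of germ-free fathers.

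Specific pathogen free (SPF) C57BL/6 males were the controls and gave 3 testis, 4 caput and 4 cauda libraries. Germ-free (GF) C57BL/6 males from sterile isolators gave 4 testis, 6 caput and 6 cauda libraries. F1 males, born in a conventional facility to a GF father and an SPF mother, gave 3 caput and 3 cauda libraries. Rag2 KO males, which lack T and B cells, gave 2 caput and 3 cauda libraries. Recolonized GF males, obtained from another laboratory, descended from GF mice kept in conventional housing, as the SPF mice were, and bred there over generations. They gave 3 libraries of each tissue and were set against a second SPF set of 5 libraries of each tissue, called SPF set 2 here. The males were adults of 8 to 14 weeks, all groups apart from Rag2 KO were labelled wild type, and each library came from the tissue of 1 animal. GF cauda replicate 4, from a swollen cauda, was left out of all comparisons, as the authors did, and is described on its own, which leaves 5 GF cauda libraries in the tests.

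Glutathione peroxidases use glutathione to reduce hydrogen peroxide and organic or lipid hydroperoxides to water and alcohols. Some members carry selenocysteine in the active site, a residue written by a UGA codon that otherwise stops translation, and the others carry cysteine. In the male tract Gpx4 is known from spermatids and the sperm midpiece, Gpx5 is a secreted protein of the epididymal epithelium, and Gpx3 is the secreted form found in plasma.

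The stretch of each gene around the active-site codon is shown because it separates the family into those 2 chemistries. Each line gives 33 coding bases, 5′ to 3′ on the coding strand, from the GENCODE vM21 transcript (GRCm38, the assembly of mm10) that matches the RefSeq transcript of the table, with the active-site codon in capitals.
Gpx1: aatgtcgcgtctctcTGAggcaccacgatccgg
Gpx2: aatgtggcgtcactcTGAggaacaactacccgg
Gpx3: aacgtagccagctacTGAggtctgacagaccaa
Gpx4: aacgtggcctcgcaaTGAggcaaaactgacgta
Gpx5: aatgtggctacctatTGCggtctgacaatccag
Gpx6: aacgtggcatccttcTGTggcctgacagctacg
Gpx7: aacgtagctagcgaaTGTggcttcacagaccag
Gpx8: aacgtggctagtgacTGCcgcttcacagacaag

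In Gpx1, Gpx2, Gpx3 and Gpx4 the codon is TGA, marked as selenocysteine in GENCODE, and in Gpx5, Gpx6, Gpx7 and Gpx8 it is TGC or TGT, which encode cysteine. The Gpx1 codon is at chr9:108339451-108339453 on the plus strand, codon 47 in exon 1 of 2. The Gpx2 codon is at chr12:76795256-76795258 on the minus strand, codon 40 in exon 1 of 2. That of Gpx3 is at chr11:54907256-54907258 on the plus strand, codon 73 in exon 2 of 5. That of Gpx4 is at chr10:80054737-80054739 on the plus strand, codon 129 in exon 3 of 7 of the transcript shown. The Gpx5 codon is at chr13:21291336-21291338 on the minus strand and the Gpx6 codon at chr13:21313777-21313779 on the plus strand, both codon 73 in exon 2 of 5. The Gpx7 codon is at chr4:108403430-108403432 on the minus strand, codon 56 in exon 2 of 3, and the Gpx8 codon at chr13:113045661-113045663 on the minus strand, codon 79 in exon 2 of 3. Gpx5 and Gpx6 are neighbours on opposite strands, 2737 bases apart in the RefSeq annotation with 0 genes between them.

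Each tissue had 1 dominant glutathione peroxidase, and it was a different gene in each. In SPF mice Gpx4 made up 97.1% of the summed TPM of the family in testis (n = 3), Gpx5 made up 95.6% in caput (n = 4) and Gpx3 made up 91.9% in cauda (n = 4). The sum of the 8 members, over the libraries of all groups, ran from 3680 to 5028 TPM in 15 testis libraries, from 28857 to 40283 TPM in 23 caput libraries and from 16316 to 31686 TPM in 23 cauda libraries. These sums are 0.368 to 0.503% of all TPM in testis, 2.89 to 4.03% in caput and 1.63 to 3.17% in cauda. The share of the family sum from the genes with a TGA codon was 99.4 to 99.7% in testis, 3.20 to 5.04% in caput and 99.2 to 99.8% in cauda. The 3 tissues therefore differed in which gene carried the family. In the active-site residue only caput stood apart, and no caput library overlapped a testis or cauda library in that share.

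**Figure D1:**
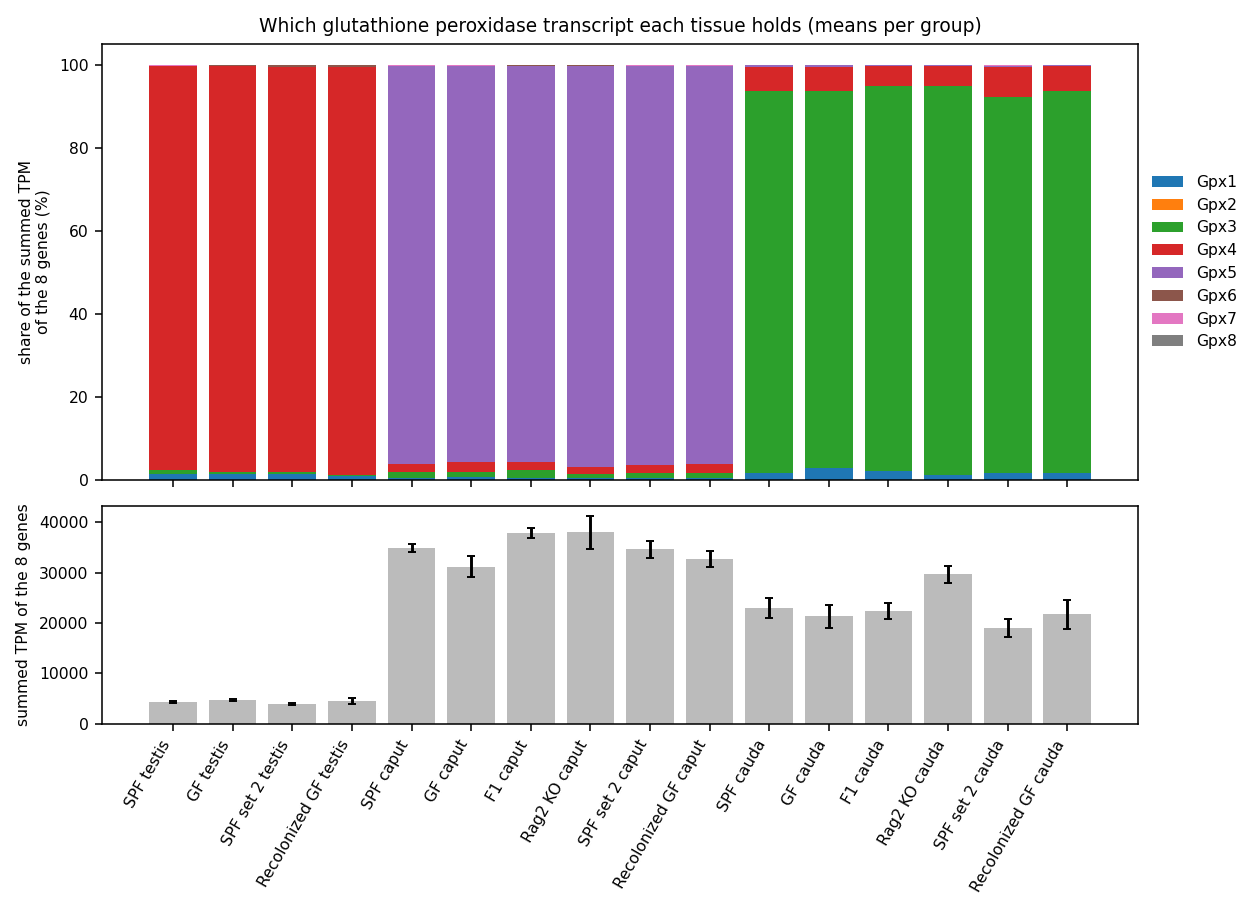
Upper panel: mean share (%) of each member in the summed TPM of the 8 glutathione peroxidases for each group and tissue. Lower panel: mean summed TPM with SD error bars. Gpx4 fills the testis bars, Gpx5 the caput bars and Gpx3 the cauda bars, and the caput sums are the highest.

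The tissues were checked by marker genes. All 15 spermatid and sperm markers were lower in SPF caput and in SPF cauda than in SPF testis, and the 9 tested caput epithelium markers were higher in caput than in testis. Spint4, also on the caput list, was at 0 in 22 of 23 caput libraries and reached 60.91 TPM in cauda. Spint4 and Adam7 overlapped between caput and cauda, and the other markers of that list did not. Of the distal epithelium markers Hoxa13, Hoxd13 and Krt20 were at or near 0, and Upk1a overlapped between cauda and caput, so the cauda label rests on Cd52 and Crisp1, neither of which overlapped. Rag2 transcript was at 0 in all epididymal libraries, controls included, so it could not check the Rag2 KO label. Between 13105 and 18822 genes were above 0 TPM in a library, and the read depth is not known from TPM. The lowest counts were 16026 in GF testis, 13747 in GF caput and 13105 in Rag2 KO cauda. The lowest SPF counts in these tissues were 17850, 15802 and 15522. In bulk tissue, fewer cells of a type and less RNA per cell cannot be told apart.

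**Figure D2:**
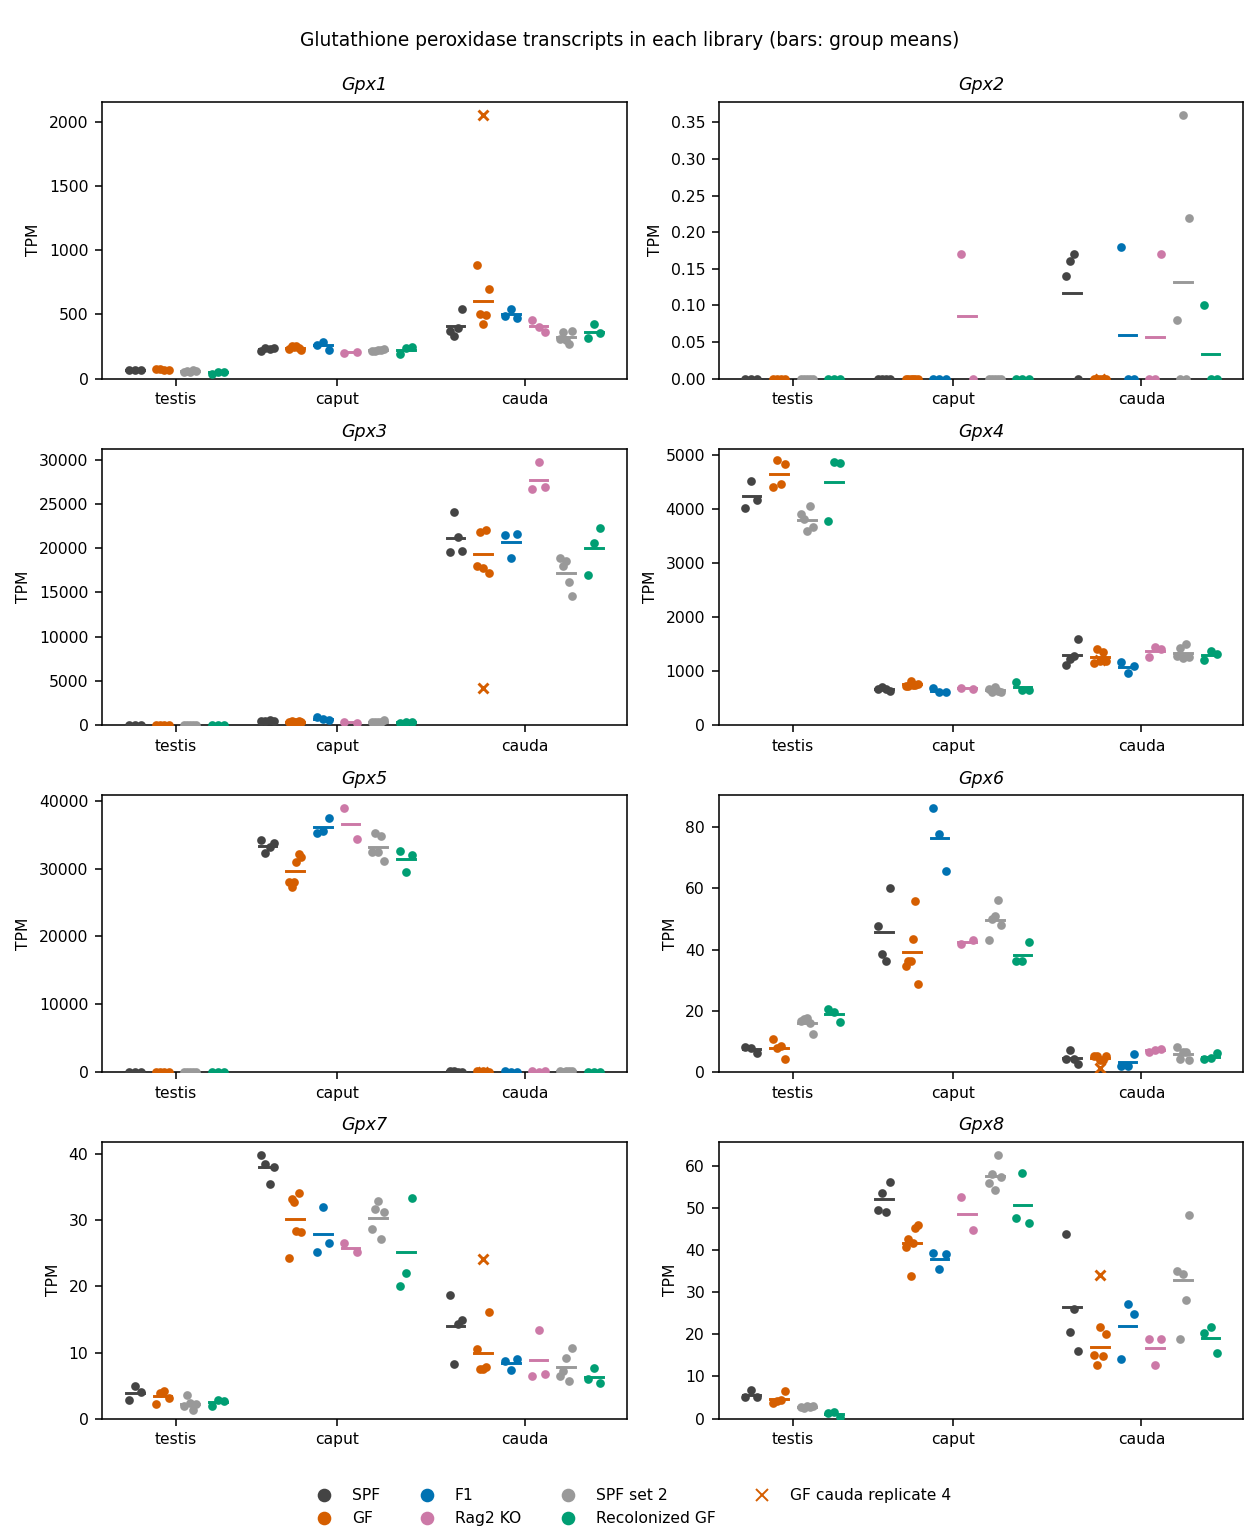
TPM of each member in each library, by tissue and coloured by group, with a bar at each group mean and a cross for GF cauda replicate 4. Each panel has its own linear axis from 0. Gpx4 is highest in testis, Gpx3 and Gpx1 in cauda, and Gpx5, Gpx6, Gpx7 and Gpx8 in caput.

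Between tissues the groups were compared with limma on log2(TPM + 1), with calls made where the adjusted p did not exceed 0.05 and the difference reached 1.5-fold. In SPF mice 7 of the 7 members tested were called in caput against testis, where 80.2% of all 14643 genes were. The same count was 7 of 7 in cauda against testis, where 77.5% of 14816 genes were called, and 7 of 7 in cauda against caput, where 39.4% of 12425 genes were called. In SPF set 2 the members called were 7 of 7, 7 of 7 and 6 of 7, where 79.4%, 78.7% and 50.3% of all genes were. Against testis most genes were called too, so the counts there are near the background. In direction, 6 members were higher and 1 lower in SPF caput than in testis, 5 were higher and 2 lower in SPF cauda than in testis, and 3 were higher and 4 lower in SPF cauda than in caput. Median-of-ratios scaling moved the median of all genes from -0.77 to -0.24 in caput against testis and from -0.69 to -0.24 in cauda against testis. The median member stood 2.99 higher in caput than in testis on the log2 scale, where the median of all genes was -0.77, and 1.95 higher in cauda than in testis, where the median of all genes was -0.69. From caput to cauda the median member was at -1.04 and the median gene at 0.07.

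**Figure D3:**
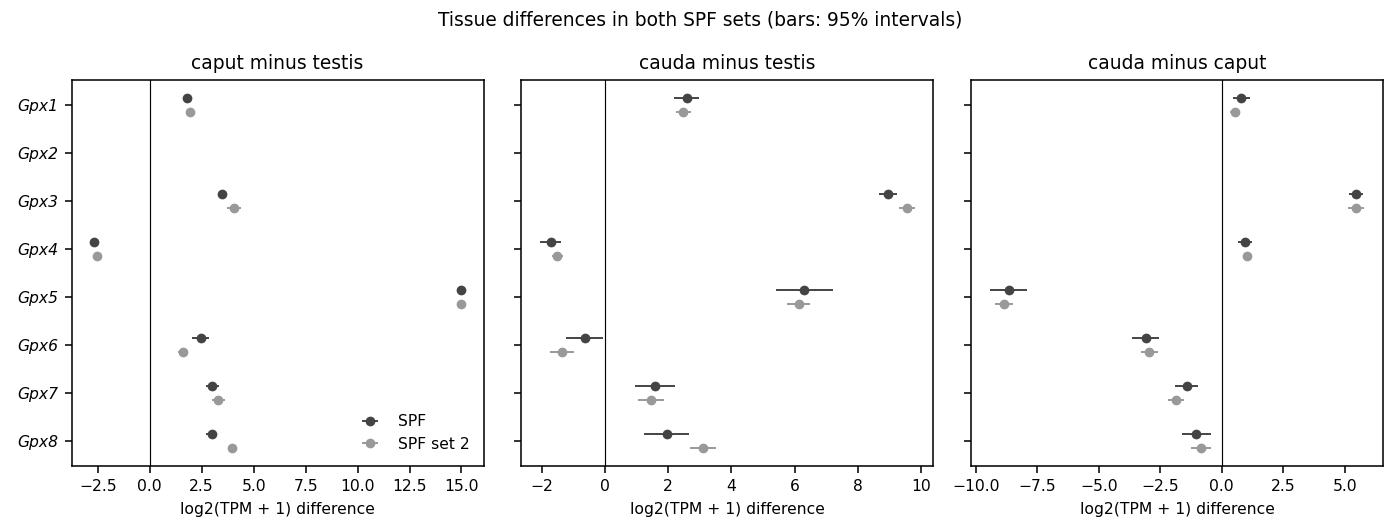
Difference in log2(TPM + 1) between tissues for each tested member, with 95% intervals, in SPF (dark) and SPF set 2 (grey). Gpx3 is the highest member in cauda against caput, at 5.45 and 5.47, and Gpx5 the lowest, at -8.66 and -8.86.

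Gpx4, which reduces phospholipid hydroperoxides in membranes and also forms part of the sperm midpiece, was the testis member. SPF testes held 4013, 4520.45 and 4171 TPM. The SPF caput libraries held 673.75, 701.65, 671.31 and 627.64 TPM. The SPF cauda libraries held 1111, 1217, 1287 and 1593 TPM, so the 3 tissues did not overlap. Such a separation was found for 88.4% of all genes between caput and testis, 81.9% between cauda and testis and 47.2% between cauda and caput. Gpx4 was 6.32-fold lower in caput than in testis (log2 difference -2.66, SE 0.09, adjusted p = 2.02e-09, limma) and 3.28-fold lower in cauda than in testis (-1.71, SE 0.15, adjusted p = 9.82e-06, limma). Cauda was 1.93-fold above caput (0.95, SE 0.13, adjusted p = 0.000311, limma). SPF set 2 gave -2.54, -1.5 and 1.04 for the same 3 differences. Over all libraries Gpx4 ranked from 8 to 13 among all genes in testis, from 155 to 221 in caput and from 114 to 151 in cauda. Its row sums 3 RefSeq transcripts, so the mitochondrial, cytosolic and nuclear forms were not resolved. The pseudogenes Gpx4-ps1 and Gpx4-ps2 were not found under those names among the genes listed. Reads shared with them could not be told apart from those of Gpx4.

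Gpx5, a secreted enzyme of the epididymal epithelium, was the caput member and the most abundant transcript of all genes in each of the 23 caput libraries. SPF caput held 34198, 32267, 33121 and 33773 TPM, followed by the lipocalin Lcn8 with a mean of 26645 TPM. SPF cauda held 95.1, 166, 57.5 and 48.3 TPM. SPF testis held 0, 0 and 0.13 TPM, and 12 of all 15 testis libraries were listed at 0. Gpx5 was 404-fold lower in cauda than in caput (-8.66, SE 0.34, adjusted p = 7.05e-08, limma), and SPF set 2 gave 465-fold (-8.86). Against testis the log2 difference was 14.97 in caput and 6.31 in cauda, both called, but its size depends on the pseudocount because testis was at or near 0. The replicates agreed far more closely in caput, where the coefficient of variation was 2.52% in SPF, than in cauda, where it was 58.3%.

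Gpx3, the secreted peroxidase that is also found in plasma, was the cauda member. SPF testes held 39.7, 44.95 and 40.2 TPM, and SPF caput libraries 443.84, 455.77, 543.42 and 479.82 TPM. SPF cauda held 19574, 24104, 21206 and 19676 TPM, second to Cd52, a surface glycoprotein passed to sperm, whose mean was 76446 TPM. Gpx3 was 11.3-fold higher in caput than in testis (3.50, SE 0.10, adjusted p = 8.34e-10, limma). It was a further 43.9-fold higher in cauda than in caput (5.45, SE 0.12, adjusted p = 2.08e-09, limma) and 495-fold higher in cauda than in testis. In SPF set 2 the last 2 differences were 44.2-fold and 743-fold, and the wider gap to testis came with a lower testis level there (17.0 to 25.8 TPM). Gpx3 ranked from 2 to 6 among all genes in the 23 cauda libraries.

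Gpx1, the widely expressed cytosolic and mitochondrial enzyme, rose along the tract by smaller steps. SPF testes held 70.5, 64.6 and 64.3 TPM. The SPF caput libraries held 217.66, 239.9, 232.66 and 236.24 TPM. The SPF cauda libraries held 373.13, 328.99, 393.92 and 539.17 TPM, with no overlap between tissues. Caput was 3.45-fold above testis (1.79, SE 0.09, adjusted p = 2.91e-08, limma) and cauda 1.73-fold above caput (0.79, SE 0.16, adjusted p = 0.0025, limma). In SPF set 2 the step from caput to cauda was 1.44-fold (0.53, SE 0.10, adjusted p = 0.000376, limma), under the 1.5-fold limit and so not called, though it was without SPF set 2 cauda replicate 4 (0.59).

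Gpx6, known in mammals from the olfactory epithelium and carrying cysteine in mice, was highest in caput. SPF caput held 47.6, 38.7, 36.2 and 60.2 TPM, SPF testis 8.02, 7.95 and 6.25 TPM, and SPF cauda 4.15, 7.2, 4.2 and 2.74 TPM. Caput was 5.47-fold above testis (2.45, SE 0.18, adjusted p = 5.73e-07, limma) and cauda was 8.55-fold below caput (-3.10, SE 0.25, adjusted p = 8.93e-06, limma). Cauda and testis overlapped in SPF, and their difference (-0.64, adjusted p = 0.0427, limma) shrank with median-of-ratios scaling (-0.19, adjusted p = 0.467, limma). With a single library left out it stayed at -0.85 to -0.47, but it was called only without SPF cauda replicate 2 (adjusted p = 0.00388, limma) and not without any of the 6 others (0.0576 to 0.125). In SPF set 2 testis was above cauda (15.97 against 5.78 TPM, -1.35, adjusted p = 5.70e-06, limma). The neighbouring Gpx5 and Gpx6 were thus both highest in caput, at mean levels of 33339.7 and 45.7 TPM in SPF.

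Gpx7 and Gpx8, both resident in the endoplasmic reticulum where they act beside protein disulfide isomerases, ran in parallel. Gpx7 in SPF was at 39.9, 38.6, 35.4 and 38.1 TPM in caput, at 18.7, 8.28, 14.3 and 14.85 TPM in cauda and at 2.8, 4.94 and 3.99 TPM in testis. Gpx8 in SPF was at 49.5, 53.65, 49.1 and 56.2 TPM in caput, at 43.7, 20.6, 26.1 and 16.1 TPM in cauda and at 5.15, 6.88 and 5.12 TPM in testis. Both were ordered caput, cauda, testis without overlap. Caput exceeded testis 8.07-fold for Gpx7 (3.01, SE 0.14, adjusted p = 2.82e-08, limma) and 7.95-fold for Gpx8 (2.99, SE 0.12, adjusted p = 5.84e-09, limma). Cauda was 2.68-fold below caput for Gpx7 (-1.42, SE 0.21, adjusted p = 0.000469, limma) and 2.05-fold below for Gpx8 (-1.04, SE 0.26, adjusted p = 0.00938, limma).

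Gpx2, the enzyme of the gastrointestinal epithelium, was near the bottom of the range in every tissue. It was at 0 in all 15 testis libraries, in 22 of 23 caput libraries and in 14 of 23 cauda libraries, and its highest value was 0.36 TPM. In cauda it was listed at 0.14, 0.16, 0.17 and 0 TPM in SPF and at 0 in all 6 GF libraries. It never reached a mean of 1 TPM and was not tested. Its pseudogene Gpx2-ps1 was at most 0.46 TPM in caput and 0.22 TPM in testis.

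For each member the 16 means of tissue and group were put in order. The same was not done for all genes, so the counts and positions below have no background and only describe the members. Of the 15 pairs of neighbours in that order, 13 overlapped for Gpx1 and Gpx4, 9 for Gpx3, all 15 for Gpx2 and 12 for each of the other 4 members. For Gpx3 the Rag2 KO cauda stood first, at 26638 to 29752 TPM, without overlap with the SPF cauda below it. For Gpx6 the F1 caput stood first, at 65.5 to 86.2 TPM, also without overlap. For Gpx7 the SPF caput stood first, at 35.4 to 39.9 TPM, above each library of the 5 other caput groups, SPF set 2 included. The SPF caput is the control of 3 comparisons, and its position bears on Gpx7 in each of them.

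For each member the 3 genes whose pattern was most alike were taken by Pearson r over the 16 means, among 11387 genes reaching a mean of 10 TPM in at least 1 group. The points share tissues, and the r is mostly a likeness of tissue pattern. For Gpx5 these were the beta-defensins Defb18 (r = 0.999), Defb48 (0.998) and Defb20 (0.997), and for Gpx3 they were Ptges, a prostaglandin E synthase (0.997), the ligand Wnt4 (0.996) and Stard5, a lipid transfer protein (0.996). For Gpx4 they were Fam187b (0.995), 2810408A11Rik (0.994) and Gm5617 (0.992), and for Gpx1 Shisa5 (0.995), Slc12a9 (0.994) and the glucose transporter Slc2a1 (0.993). Gpx8 had Pdia4, a protein disulfide isomerase (0.983), Txndc15 (0.982) and Eid1 (0.982), and Gpx7 had Rasd1 (0.986), Cyp4f16 (0.985) and Ism2 (0.983). Gpx6 had the loosest neighbours, with Runx2 (0.967), Sema4g (0.967) and Ggt7 (0.965). At least 71 genes reached an r of 0.98 with each of Gpx1, Gpx3, Gpx4 and Gpx5, 16 did with Gpx7, 8 with Gpx8 and 0 with Gpx6, so these names are examples of larger sets for the first 4.

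Genes around the family in glutathione and peroxide metabolism were followed as lists. Among all genes 21.1% were called higher and 18.4% lower in SPF cauda than in caput. From caput to cauda in SPF mice, 2 of 17 tested genes of glutathione synthesis, recycling and turnover were higher in cauda and 8 lower, with a median of -0.21 where all genes had 0.07. Among them the gamma-glutamyl transferases Ggt7 (-4.01) and Ggt1 (-3.02), the latter cleaving extracellular glutathione, and the amino acid carrier subunit Slc3a2 (-2.73) were lower in cauda, and Oplah (1.42), which turns 5-oxoproline into glutamate, was higher. Of 20 glutathione S-transferases 10 were higher and 5 lower in cauda (median 0.60), with Gsta2 (4.67), Gsta3 (2.33) and Gstm5 (2.23) higher and Gstt2 (-3.34) lower. Of 11 other selenoproteins 6 were higher in cauda and 0 lower (median 0.65), led by the methionine sulfoxide reductase Msrb1 (1.58) and Sepw1 (1.43). The genes for selenocysteine insertion and selenium supply were split, with 3 of 10 higher and 3 lower (median -0.04), the receptor Lrp2, which takes up selenoprotein P in kidney, being higher in cauda (3.83). Of the 12 genes of the NRF2 list 3 were higher and 1 lower, with the sulfiredoxin Srxn1 at 2.50 and the quinone reductase Nqo1 at 1.22.

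Between caput and testis 27.4% of all genes were called higher in caput and 52.9% lower. In caput against testis 10 of 18 glutathione genes were higher and 5 lower (median 0.71, all genes -0.77), from Ggt1 (5.32) to the dipeptidase Dpep3 (-8.72). The glutathione S-transferases Gsto2 (-7.51), Gsta2 (-5.08) and Gstm5 (-4.76) were lower in caput, while 11 of the 21 tested were higher, Mgst1 (2.20) among them. Of 14 thioredoxins and glutaredoxins 3 were higher in caput and 6 lower, the lower ones being led by the spermatid thioredoxins Txndc2 (-7.73) and Txndc8 (-7.26). Of 11 peroxiredoxins, catalase and superoxide dismutases 5 were higher and 3 lower, with Prdx1 at 2.45 and Prdx6 at 2.06 higher in caput and Prdx6b at -7.26. Of 11 genes of selenocysteine insertion and selenium supply 6 were lower in caput and 3 higher, with the selenoprotein P receptor Lrp8 at -3.57, Sepsecs at -3.12 and Sephs2 at -3.00. The remaining lists in this contrast had 7 higher and 3 lower of 12 other selenoproteins, 5 and 2 of 12 NRF2 genes, 2 and 2 of 8 hydrogen peroxide sources, and 4 and 3 of 9 partners of lipid peroxidation and ferroptosis.

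GF, F1 and Rag2 KO mice were each compared with the same SPF libraries, and their differences therefore share the control values. No member was called in GF testis (0.0423% of 14177 genes were), GF caput (0.348% of 11790) or GF cauda (0.144% of 12493). The limma count at an unadjusted p under 0.05 was 1 of 6 members in testis, 5 of 7 in caput and 1 of 7 in cauda, against 1917, 1984 and 1966 genes in all.

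**Figure D4:**
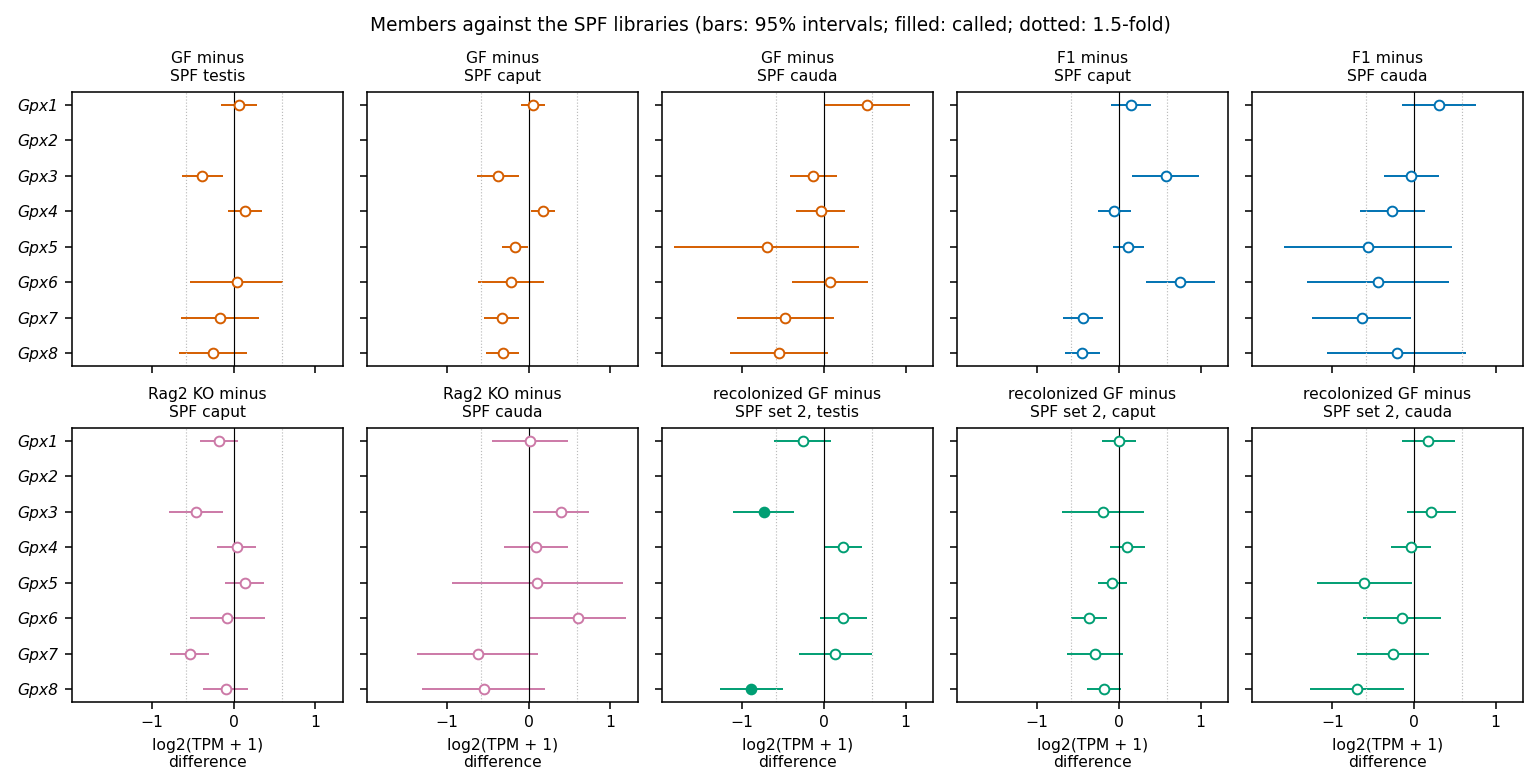
Difference in log2(TPM + 1) from the SPF control for each tested member in 10 comparisons, with 95% intervals. Filled points were called, and dotted lines mark 1.5-fold. Only Gpx3 and Gpx8 in recolonized testis are filled, at -0.74 and -0.89.

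In GF testis Gpx3 was at 34.1, 34.7, 27.8 and 30.3 TPM, where SPF testis was at 39.7, 44.95 and 40.2 TPM. All 4 GF testes were below all 3 SPF testes, a separation found in either direction in 13.6% of all genes. The log2 difference was -0.38 (95% interval -0.63 to -0.14, adjusted p = 0.334, limma) and was not called. Gpx4 was at 4413, 4905, 4456 and 4841 TPM in GF, overlapping SPF (0.14, interval -0.07 to 0.34). The 4 other tested members had differences from -0.26 for Gpx8 to 0.06 for Gpx1. The median of the 6 was -0.07, and that of all genes was -0.10.

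In GF caput Gpx5 ran from 27330 to 32094 TPM with a median of 29483 TPM. All 6 GF libraries were below the lowest SPF library (32267 TPM), and the mean was 29701 ± 2118 TPM (SD, n = 6) against 33339.7 ± 841 TPM (SD, n = 4). The log2 difference was -0.17 (SE 0.07, interval -0.33 to -0.01, adjusted p = 0.27, limma), so it did not pass and the interval holds falls of at most 0.33. Gpx5 still ranked first among all genes in each GF caput library.

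Gpx4 in GF caput ran from 727.81 to 824.26 TPM with a median of 742.625 TPM, above all SPF caput libraries, whose highest was 701.65 TPM. The difference was 0.17 (interval 0.03 to 0.32, adjusted p = 0.226, limma). Gpx7 ran from 24.3 to 34.1 TPM with a median of 30.6 TPM and lay below all SPF caput libraries (-0.33, interval -0.55 to -0.12, adjusted p = 0.149, limma). Gpx8 ran from 33.98 to 45.9 TPM with a median of 42.1 TPM, also below all SPF caput libraries (-0.32, interval -0.52 to -0.12, adjusted p = 0.138, limma). Such a separation of the groups was found in 4.97% of all genes, and for these 4 members none of the differences reached 1.5-fold or passed the adjusted test. Gpx3 overlapped SPF, from 313.12 to 446.42 TPM with a median of 360.275 TPM (-0.38, interval -0.63 to -0.12, adjusted p = 0.155, limma), and so did Gpx1 (0.06) and Gpx6 (-0.22). The median over the 7 was -0.22, where that of all genes was -0.03. Beside these values, all 4 erythroid markers had a positive difference, with a median of 1.27, and 1 of them, Hba-a2 (1.39), was called. They summed to 414.05 to 775.04 TPM in GF caput and to 147.52 to 266.4 TPM in SPF caput. Of 9 tested caput epithelium markers 0 were called, with a median of -0.09, and of 10 tested macrophage markers 0 were called, with a median of 0.27. The part of these cells in the members' values was not tested.

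In GF cauda Gpx1 was at 885.06, 500.7, 424.19, 494.19 and 701.66 TPM, where SPF cauda was at 373.13, 328.99, 393.92 and 539.17 TPM. Replicates 1 and 6 were above all SPF libraries, and the groups overlapped. The log2 difference was 0.53 (SE 0.23, interval 0.00 to 1.05, adjusted p = 0.315, limma). Both high libraries were also those with the highest macrophage RNA. The summed TPM of 12 macrophage markers was 3472 in replicate 1 and 3676 in replicate 6, between 306.08 and 1236 in the 3 others, and between 198.58 and 432.07 in SPF. The part of macrophage RNA in the Gpx1 level was not tested. Gpx3, the main cauda member, was at 17980, 21811, 17746, 22073 and 17193 TPM and overlapped SPF (-0.13, interval -0.42 to 0.16). The interval of Gpx5 was the widest, from -1.84 to 0.44, and Gpx7 (-0.47) and Gpx8 (-0.55) overlapped SPF too. The spermatid and sperm markers, 14 of 14 tested with a positive difference and a median of 2.01, varied among the SPF cauda libraries from 50.9 to 1922 summed TPM, and their part was likewise not tested.

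**Figure D5:**
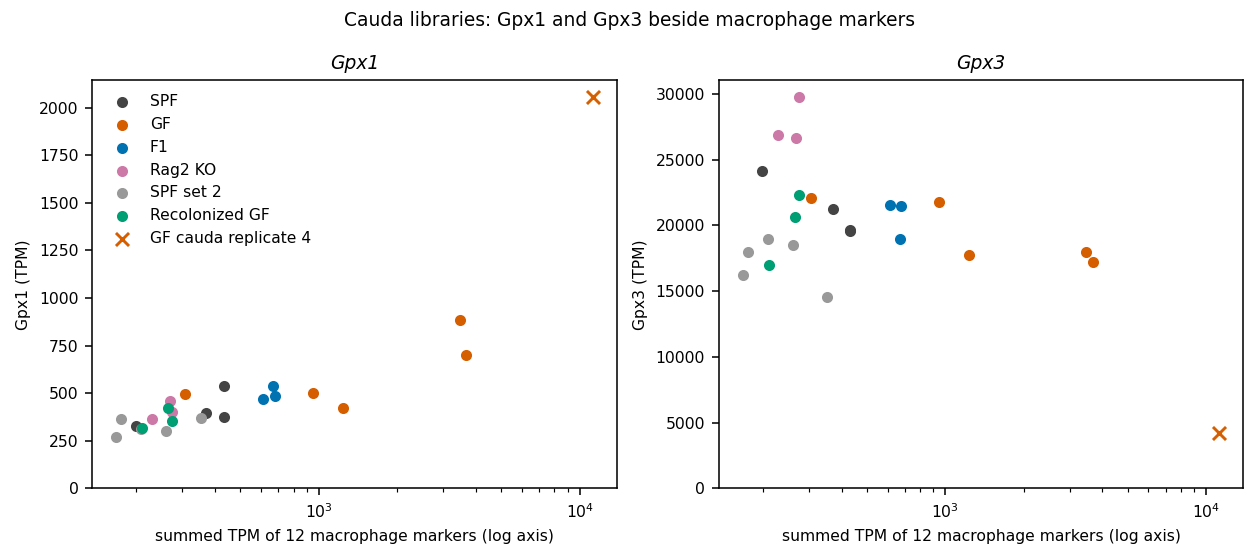
TPM of Gpx1 and of Gpx3 against the summed TPM of 12 macrophage markers (log axis) in 24 cauda libraries, coloured by group, with GF cauda replicate 4 as a cross. Replicate 4 has the highest marker sum (11229 TPM), the highest Gpx1 (2055 TPM) and the lowest Gpx3 (4231 TPM).

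The swollen cauda, GF replicate 4, had the family in other proportions. Gpx1 was at 2055 TPM, 3.42 times the mean of the 5 other GF cauda libraries and above all 23 other cauda libraries. Gpx3 was at 4231 TPM, 4.58-fold below the mean of the other GF libraries and below all 23. Gpx1 thus made up 27.2% and Gpx3 56.0% of a family sum of 7558 TPM. Gpx5 (12.5 TPM) and Gpx6 (1.29 TPM) were also below all 23 other cauda libraries, Gpx7 (24.2 TPM) was above them, and Gpx4 (1199.73 TPM), Gpx8 (34.05 TPM) and Gpx2 (0 TPM) lay within their range. In the same library 11 of 12 macrophage markers were above all 23 others and all 6 smooth muscle markers below them. Also above all 23 were 6 of 9 T and B cell, 4 of 5 endothelial and 3 of 5 neutrophil markers, with 0 of these 3 lists below. The part of any of these cells in the members' values was not tested. The summed distal epithelium markers were at 18483 TPM, where the 23 others had 71233 to 118078 TPM. With this library included the GF cauda mean was 843 ± 617 TPM (SD, n = 6) for Gpx1 and 16839 ± 6532 TPM (SD, n = 6) for Gpx3, against 601.16 ± 189 TPM and 19361 ± 2376 TPM (SD, n = 5) without it.

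The GF difference was also compared between cauda and caput in 1 fit of both regions. No member was called for that interaction (0.0881% of 12481 genes were), and 0 of 7 had an unadjusted p under 0.05 in limma. The lowest p among the members was that of Gpx1, whose GF difference was 0.47 higher in cauda (interval -0.03 to 0.97, adjusted p = 0.468, limma).

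F1 sons of GF fathers had more genes called in caput than any other of the comparisons with the first SPF set, 2.72% of 12041, but no member was among them. Of those 328 genes 258 were higher and 70 lower, and with median-of-ratios scaling 142 were higher and 171 lower. The paper, with DESeq2 on raw counts, reported more altered genes in F1 cauda than in F1 caput, the reverse of the order found here. In limma 4 of 7 members and 3478 genes had an unadjusted p under 0.05. Gpx6 came nearest. It was at 86.2, 77.7 and 65.5 TPM in F1, where SPF caput was at 47.6, 38.7, 36.2 and 60.2 TPM. All 3 F1 libraries were above all SPF libraries, as in either direction for 26.8% of all genes. The difference was 1.68-fold (0.75, SE 0.18, interval 0.33 to 1.17, adjusted p = 0.0528, limma). It did pass when the groups of the tissue shared 1 fit (adjusted p = 0.00683, limma), when libraries were weighted by their spread (adjusted p = 0.0271, limma), with a filter at a mean of 5 TPM (adjusted p = 0.0298, limma) and without SPF replicate 4 (0.89, adjusted p = 0.0213, limma). Without any other single library its adjusted p in limma was between 0.0803 and 0.138. It also did not pass with a pseudocount of 0.1 (adjusted p = 0.0717), without a filter (0.0731), with median-of-ratios scaling (0.62, adjusted p = 0.0619) or with the replicate block (adjusted p = 0.094), all in limma.

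Gpx3 in F1 caput was at 928.08, 727.65 and 538.69 TPM, the lowest of them just under the highest SPF library (543.42 TPM). The difference was 0.57 (interval 0.17 to 0.98, adjusted p = 0.0822, limma). Gpx8 was at 39.4, 35.5 and 39.0 TPM, below all SPF libraries, and passed the adjusted test at 1.36-fold lower (-0.45, SE 0.09, adjusted p = 0.0414, limma), under the 1.5-fold limit. With 1 library left out it was at -0.47 to -0.40 and the adjusted p in limma exceeded 0.05 (0.0803 to 0.122) except without SPF replicate 4 (0.0334). Gpx7 was at 25.3, 31.99 and 26.6 TPM, also below all SPF libraries (-0.44, SE 0.11, adjusted p = 0.0528, limma). Gpx5 was at 35195, 35482 and 37521 TPM, above all SPF libraries (0.11, interval -0.08 to 0.30), a sign that turned with median-of-ratios scaling (-0.02). The summed erythroid and macrophage markers were also higher in F1 caput than in SPF caput. Among all genes 258 of 12041 were called higher, and these markers were not followed under median-of-ratios scaling. All 4 erythroid markers were higher, summing to 842.37 to 1372 TPM where SPF had 147.52 to 266.4 TPM, and 3 of 10 tested macrophage markers were higher, the 12 of the list summing to 682.44 to 719.65 TPM where SPF had 466.03 to 550.6 TPM. The part of erythroid and macrophage RNA in the members' values was not tested. The median over the members was 0.11, equal to that of all genes.

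In F1 cauda no member was called (0.188% of 12784 genes were) and 1 of 7 had an unadjusted p under 0.05, with 2999 genes in all. That member was Gpx7, at 8.75, 7.3 and 8.97 TPM where SPF was at 18.7, 8.28, 14.3 and 14.85 TPM. The groups overlapped (-0.64, interval -1.24 to -0.04, adjusted p = 0.193, limma). Gpx3 (21464, 18937 and 21575 TPM) differed by -0.03 (interval -0.37 to 0.31). Of the 7 differences 6 were negative, with a median of -0.26, and the seventh, Gpx1, turned negative with median-of-ratios scaling (-0.052). That scaling moved the median of all genes from 0.28 to -0.03.

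In Rag2 KO caput, with 2 libraries, no member was called (0.159% of 11915 genes were), and limma gave 2 of 7 members and 2178 genes an unadjusted p under 0.05. Gpx7 was at 26.6 and 25.1 TPM, below all SPF libraries (-0.54, interval -0.78 to -0.30, adjusted p = 0.137, limma). Gpx3 was at 393.86 and 304.68 TPM, also below (-0.47, interval -0.80 to -0.14, adjusted p = 0.193, limma). Gpx5, at 38871 and 34406 TPM, was above all SPF libraries (0.13, interval -0.11 to 0.38). Separation of this kind was found in 29.7% of all genes with these group sizes.

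In Rag2 KO cauda Gpx3 was at 26638, 29752 and 26860 TPM, where SPF cauda was at 19574, 24104, 21206 and 19676 TPM. The 3 Rag2 KO libraries were above all 4 SPF libraries, a separation found in 13.2% of all genes, and above all other cauda libraries of the series. The difference was 1.32-fold (0.40, SE 0.15, interval 0.05 to 0.74, adjusted p = 0.415, limma) and was not called. Gpx6 was at 6.63, 7.12 and 7.59 TPM and overlapped SPF through its replicate 2 (0.60, interval 0.01 to 1.19, adjusted p = 0.463, limma). No member was called, 0.13% of 12293 genes were, and 2 of 7 members and 1294 genes had an unadjusted p under 0.05 in limma. Macrophage markers summed to 229.0 to 274.67 TPM in these libraries and to 198.58 to 432.07 TPM in SPF. The median over the members was 0.09, where that of all genes was -0.06.

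The recolonized GF mice were compared with SPF set 2. In testis 2 of 6 tested members were called, both lower, where 1.28% of 14264 genes were called and 1.16% were called lower. Gpx8 was at 1.26, 1.67 and 0.44 TPM in recolonized testis, where SPF set 2 was at 2.8, 2.45, 3.08, 2.83 and 2.88 TPM. The groups did not overlap, as for 16.9% of all genes. Gpx8 was 1.85-fold lower on the log2(TPM + 1) scale (-0.89, SE 0.17, interval -1.27 to -0.50, adjusted p = 0.0372, limma).

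Gpx3 was at 12.5, 16.9 and 10.03 TPM in recolonized testis, where SPF set 2 was at 22.1, 23.6, 17.0, 22.9 and 25.8 TPM. The groups again did not overlap, though the highest recolonized library was within 0.1 TPM of the lowest SPF library. Gpx3 was 1.67-fold lower (-0.74, SE 0.17, interval -1.11 to -0.36, adjusted p = 0.0477, limma). Both calls were lost with median-of-ratios scaling, which moved the median of all genes from -0.16 to -0.00059 and the calls among all genes from 18 higher and 165 lower to 25 higher and 22 lower, and left Gpx3 at -0.56 (adjusted p = 0.108, limma) and Gpx8 at -0.78 (adjusted p = 0.0769, limma). With 1 library left out, both calls were kept only without recolonized replicate 1, with adjusted p of 0.0319 for Gpx3 and 0.017 for Gpx8 in limma. Without any other single library the adjusted p of Gpx3 in limma was between 0.0535 (SPF set 2 replicate 1) and 0.168 (recolonized replicate 3), and Gpx8 kept its call only without SPF set 2 replicate 1 (0.0383) or recolonized replicate 2 (0.0444), the 5 others giving 0.0653 to 0.0941. Gpx4, at 3776, 4867 and 4846 TPM, overlapped SPF set 2 (0.23, interval 0.00 to 0.46, adjusted p = 0.162, limma), and the median over the 6 members was -0.06, where that of all genes was -0.16.

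Beside the lower Gpx3 and Gpx8, 4 of 11 Sertoli and Leydig cell markers were lower in recolonized testis, Hsd3b1 (-0.99), Cyp17a1 (-0.67), Cyp11a1 (-0.65) and Wt1 (-0.60). None of the 11 had a positive difference, their median was -0.53, and they summed to 2439 to 3576 TPM where SPF set 2 had 3975 to 5373 TPM. Other genes of the redox lists called there were all lower: Sepp1, the plasma selenium carrier (-0.82), Idh1, a source of NADPH (-0.73), Gsta3 (-0.68), Gstm1 (-0.65) and Txn1, a thioredoxin (-0.60). Among all genes 165 of the 183 called were lower too, 1.16% of those tested. Median-of-ratios scaling left 25 genes higher and 22 lower, and the calls of these list genes and markers were not followed under it. The part of somatic cell RNA in the lower Gpx3 and Gpx8 was not tested. In the other condition comparisons the only gene of the redox lists called was Txnip, which binds thioredoxin, at 145 TPM in F1 caput and 92.8 TPM in SPF (0.64, adjusted p = 0.0236, limma).

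In recolonized caput no member was called (0.175% of 12561 genes were), and Gpx6 alone of the 7 had an unadjusted p under 0.05 in limma, as did 1023 genes in all. Gpx6 was at 36.1, 36.4 and 42.3 TPM, where SPF set 2 was at 43.1, 50.1, 51.0, 56.0 and 48.1 TPM, without overlap, as for 5.95% of all genes (-0.37, interval -0.59 to -0.14, adjusted p = 0.309, limma). Gpx5 was at 32593, 29517 and 32016 TPM and overlapped SPF set 2 (-0.08, interval -0.26 to 0.09).

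In recolonized cauda no member was called (0.323% of 12683 genes were), and 2 of 7 members and 1988 genes had an unadjusted p under 0.05 in limma. Gpx8 was at 20.3, 21.6 and 15.7 TPM, where SPF set 2 was at 35.1, 18.8, 34.4, 28.2 and 48.3 TPM, with overlap (-0.70, interval -1.28 to -0.12, adjusted p = 0.246, limma). Gpx5 was at 32.8, 52.4 and 55.8 TPM, where SPF set 2 was at 113.59, 52.3, 72.6, 64.0 and 61.9 TPM, with overlap (-0.61, interval -1.18 to -0.03, adjusted p = 0.301, limma). Gpx3 was at 17003, 20632 and 22330.1 TPM and overlapped SPF set 2 (0.21, interval -0.09 to 0.51).

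Whether the GF difference and the recolonized difference themselves differed was tested as an interaction in each tissue. No member was called, where 0.014% of 14314 genes were in testis, 0.00816% of 12261 in caput and 0.00789% of 12675 in cauda. In testis Gpx8 alone had an unadjusted p under 0.05, with the GF difference 0.63 above the recolonized one (interval 0.06 to 1.20, adjusted p = 0.839, limma). For Gpx3 in testis the same difference was 0.35 (interval -0.11 to 0.81).

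The 2 SPF sets differed from each other in some members, and the sources used here do not state how the sets differ. In testis Gpx3 was at 39.7 to 44.95 TPM in SPF and 17.0 to 25.8 TPM in SPF set 2. Gpx8 was at 5.12 to 6.88 TPM and 2.45 to 3.08 TPM, and Gpx6 was at 6.25 to 8.02 TPM and 12.2 to 17.7 TPM. These 3 did not overlap between the sets, nor did Gpx7 in caput (35.4 to 39.9 and 27.2 to 32.9 TPM) or Gpx3 in cauda (19574 to 24104 and 14562 to 18939 TPM). The testis means of Gpx3 and Gpx8 were 1.87-fold and 2.04-fold higher in SPF than in SPF set 2. In recolonized testis their log2 differences were -0.74 and -0.89. The GF testis means, 31.7 TPM for Gpx3 and 4.685 TPM for Gpx8, lay between those of the 2 SPF sets (41.6 and 22.3 TPM, 5.72 and 2.81 TPM). No test was made between the sets, and the condition comparisons stay within a set. The share of all genes that did not overlap between the sets was not computed, so these separations have no background.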

How the data were processed

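Male mouse testis, caput and cauda were sequenced by the authors as stranded poly(A) libraries, with each replicate from 1 animal. The authors deposited TPM, made with RSEM against mm10 on the Via Foundry platform which corrects for transcript length and library total (versions not given in the sources used here). TPM keep no read counts, so the depth and counting error of a value are unknown and the spread between animals is the only measure of precision. All 62 sample columns were used and 0 were left unmapped. No columns were identical (highest Pearson r 0.996).

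Values were tested as log2(TPM + 1) for genes whose mean reached 1 TPM in a comparison, with limma 3.58.1 in R 4.3.3, which was tested on simulated data, and Benjamini-Hochberg adjustment over all tested genes. Intervals cover 95%. Calls needed an adjusted p of at most 0.05 and 1.5-fold, the authors' limits for DESeq2 on raw counts. The paper reported far more altered genes in GF and F1 cauda than were called here, so the absence of calls among the members is not comparable with its calls. Only the groups compared entered a fit, and GF cauda replicate 4 was left out. Other steps used Python 3.11.15 and pandas 2.3.3. RefSeq GRCm38.p6 matched 22552 of 23845 symbols.

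The members, 9 pathway lists and 12 marker lists were chosen with earlier results of these data known. Of the list genes 5 were not found in the table and 11 were found under older symbols. All 8 members are named, and of each list up to 4 called genes with the largest fold. A few of the genes given from a list were picked after their values were seen. Alternatives were a pseudocount of 0.1, no filter or a mean of 5 TPM, median-of-ratios scaling, array weights, all groups of a tissue in 1 fit, a replicate block, GF cauda replicate 4 added, group medians for levels, and each library left out in turn. The labels do not say whether tissues with the same number came from the same animal.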

Additional observations from a re-analysis of the deposited data

Results flagged for a closer look

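In 58 sets of 4 to 6 libraries, Dixon's test marked 7 values as far from the rest of their group, where chance marks about 1 in 20. In GF cauda these were 3 values of the swollen cauda, replicate 4, when it is kept in the group: Gpx1 at 2054.52 TPM as the highest, Gpx3 at 4231.25 TPM as the lowest and Gpx6 at 1.29 TPM as the lowest. In SPF set 2 caput, Gpx3 in replicate 5 was at 579.19 TPM, where the 4 others were between 326.79 and 377.84 TPM. In GF caput, Gpx4 in replicate 3 was at 824.26 TPM, where the 5 others were between 727.81 and 759.65 TPM.

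In testis Gpx5 was otherwise at 0 in the groups concerned, where the test marks any single value above 0 and the chance rate does not hold. There GF replicate 1 was at 2.24 TPM and SPF set 2 replicate 5 at 0.11 TPM. Of 9 other epididymal transcripts, chosen after the value was seen, 7 had their highest GF value in the same library: Cd52 at 7.03 TPM, Defb20 at 2.03 TPM, Defb18 at 1.35 TPM, Lcn9 at 0.91 TPM, Cst11 at 0.68 TPM, Lcn8 at 0.62 TPM and Adam7 at 0.05 TPM. Of these, Cst11 was higher in SPF testis replicate 1 (0.93 TPM), and Cd52 (51.19 TPM) and Adam7 (0.26 TPM) were higher in SPF set 2 testis replicate 1. Defb48 was at 0 there and at 0.85 TPM in GF replicate 2, and Crisp1 was at 0 in all 4 GF testes. The part of epididymal RNA in this library was not tested.

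The swollen cauda was not in any comparison, and in it Gpx1 (2054.52 TPM) and Gpx7 (24.22 TPM) were above every SPF cauda library, whose highest values were 539.17 and 18.69 TPM.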

How the results depend on the processing

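Of 2260 member differences recomputed under the alternatives, 2154 kept their direction and side of the threshold, 33 lost their call, 6 gained one and 67 changed sign, all 67 in differences that were not called. The count of members called kept its value within 1.5 times in 315 of 332 recomputations. In F1 caput it went from 0 to 1 with a mean of at least 5 TPM and with all groups in 1 fit, to 2 with array weights (Gpx6 and Gpx3), and was 0 to 1 with a library left out. In recolonized testis it went from 2 to 0 with a pseudocount of 0.1, no filter, median-of-ratios scaling, array weights or the replicate block, to 1 with a mean of at least 5 TPM, and was 0 to 2 with a library left out. The differences stayed at -0.78, -0.74 and -0.65 for Gpx3 and at -1.41, -0.89 and -0.87 for Gpx8 with the pseudocount, no filter and the block. With array weights the adjusted p still passed there (0.0144 for Gpx3, 0.00151 for Gpx8, limma), and the folds (-0.38 and -0.53) fell under 1.5. Median-of-ratios scaling moved the calls among all genes by over 1.5 times in recolonized testis (183 to 47), GF cauda (18 to 31), Rag2 KO caput (19 to 30), Rag2 KO cauda (16 to 27), recolonized cauda (41 to 62) and the GF difference of cauda minus caput (11 to 5).

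In no comparison did same-numbered deviations all correlate over 0.1 with 3 or more pairs (for example 0.039 to 0.12 in GF testis), and the libraries were not paired. Such correlations cannot show whether tissues with the same number came from the same animal. With the replicate block the SPF cauda against testis count went from 7 to 6, and no call other than these changed. Under the block the sign turned for Gpx4 (0.046) and Gpx6 (-0.062) in GF cauda, Gpx4 in Rag2 KO caput (-0.0071), Gpx5 in Rag2 KO cauda (-0.15), Gpx7 in recolonized testis (-0.021), Gpx1 in recolonized caput (0.028), and, in the GF minus recolonized difference, Gpx6 in testis (0.13) and Gpx5 (0.33) and Gpx8 (-0.060) in cauda.

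Signs also turned with array weights for Gpx1 (0.058) and Gpx3 (0.024) in recolonized caput and Gpx4 (-0.020), Gpx5 (0.12) and Gpx8 (-0.029) in the GF minus recolonized cauda difference. Median-of-ratios scaling turned Gpx6 in GF cauda (-0.0096), Gpx5 in F1 caput (-0.020), Gpx1 in F1 cauda (-0.052), Gpx4 in Rag2 KO caput (-0.023) and Gpx4 in the GF minus recolonized cauda difference (-0.11). Adding GF cauda replicate 4 turned Gpx6 in GF cauda (-0.14), Gpx4 in the GF minus recolonized cauda difference (-0.010), and Gpx3 (-0.12) and Gpx7 (0.073) in the GF difference of cauda minus caput, and moved the GF cauda means of 2 members by more than 1 SD, Gpx1 to 843 TPM and Gpx3 to 16839 TPM.

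With 1 library left out the sign was not fixed for Gpx6 in GF testis (-0.12 to 0.26), Gpx4 (-0.11 to 0.060) and Gpx6 (-0.097 to 0.28) in GF cauda, Gpx3 (-0.066 to 0.034) and Gpx8 (-0.41 to 0.063) in F1 cauda, Gpx6 (-0.18 to 0.061) and Gpx8 (-0.21 to 0.015) in Rag2 KO caput, Gpx1 (-0.079 to 0.16) and Gpx5 (-0.20 to 0.44) in Rag2 KO cauda, Gpx1 (-0.067 to 0.11) and Gpx3 (-0.32 to 0.039) in recolonized caput, and Gpx4 in recolonized cauda (-0.081 to 0.0098). The same held for the cauda minus caput difference of Gpx7 (-0.35 to 0.0086) and Gpx8 (-0.43 to 0.031), and for the GF minus recolonized difference of Gpx6 in testis (-0.36 to 0.022), Gpx1 (-0.051 to 0.12) and Gpx7 (-0.18 to 0.17) in caput, and Gpx4 (-0.072 to 0.10), Gpx5 (-0.44 to 0.25) and Gpx8 (-0.049 to 0.41) in cauda. The causes were not tested. Leaving out a Rag2 KO caput library leaves 1, which is then assumed to vary like the SPF libraries. TPM give no counting error, so low values such as those of Gpx2, and of Gpx8 in testis, have no limit of detection.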
